A study of Homo sapiens with 6 samples.

Results

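RCC2, Ran and its regulators and the chromosomal passenger complex were followed through RNA sequencing of DU145 cells, an epithelial line from a metastatic human prostate cancer. The members were 9 genes chosen by name and found by their symbols, out of 27381 genes in the deposited table. They are RCC2, the Ran genes RCC1, RAN, RANBP1 and RANGAP1, and the passenger complex genes AURKB, INCENP, BIRC5 and CDCA8. The labels describe 6 libraries, 2 from cells given a scrambled guide RNA (Scr), 2 from cells with CD24 knocked out (CD24 KO) and 2 from cells with RCC2 knocked out (RCC2 KO). All cells came from the same line and received Cas9 with a GFP marker on a plasmid, and according to the study's methods both the knockouts and the controls were expanded as clones after sorting for GFP. The labels do not say which clones were sequenced, so the edit and the history of a clone cannot be told apart. The table gives 1 value per gene and condition in FPKM, the sequenced fragments per length of transcript, scaled to the mapped fragments of the library. The libraries of a condition could therefore not be compared with each other, no spread between replicates and no test is available for any value that follows, and the read depth is unknown. The name of the RCC2 KO column fits both RCC2 KO libraries and is also the whole description of the first, so it may hold 1 library or both.

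RCC1 is the guanine nucleotide exchange factor that loads Ran with GTP on chromatin. RANGAP1, helped by RANBP1, makes Ran hydrolyse this GTP in the cytoplasm, and the resulting gradient drives nuclear transport and, in mitosis, spindle assembly. In the chromosomal passenger complex the kinase Aurora B (AURKB) sits on the scaffold INCENP together with survivin (BIRC5) and borealin (CDCA8), and corrects the attachment of chromosomes to the spindle. RCC2, also called TD-60, carries RCC1-like repeats, binds the inner centromere with the passenger complex in mitosis and acts on small GTPases of cell migration. RNA of the passenger complex genes is known to rise towards mitosis in dividing cells.

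The promoters of the members are shown because all 9 had less RNA under the CD24 KO label than in Scr. RefSeq windows of 300 bases on GRCh38.p14, from 250 bases before a gene's start to 50 bases from the start on, were found for 7 of 9 members, in 10 windows. BIRC5 and RANBP1 had no window. Elements common in genes of dividing cells were searched on both strands, the cell cycle genes homology region TTTGAA (CHR) and the CCAAT box. CHR was in 4 of the 10 windows, of RAN, INCENP, CDCA8 and RANGAP1, against 15.2% of all 35116 windows and 10.1% of the 14174 windows of genes compared. A CCAAT box was in 4 of the 10 windows, of INCENP, CDCA8 and, in both of its overlapping windows, AURKB. This share is close to the 34.6% of all windows and the 34.3% of windows of genes compared. The windows of RAN (chr12:130871816-130872115, plus strand), INCENP (chr11:62123761-62124060, plus strand), CDCA8 (chr1:37692266-37692565, plus strand) and RCC2 (chr1:17438487-17438786, minus strand) are printed 5′ to 3′ along the gene, with CHR and CCAAT, or its reverse complement ATTGG, in capitals.
RAN promoter: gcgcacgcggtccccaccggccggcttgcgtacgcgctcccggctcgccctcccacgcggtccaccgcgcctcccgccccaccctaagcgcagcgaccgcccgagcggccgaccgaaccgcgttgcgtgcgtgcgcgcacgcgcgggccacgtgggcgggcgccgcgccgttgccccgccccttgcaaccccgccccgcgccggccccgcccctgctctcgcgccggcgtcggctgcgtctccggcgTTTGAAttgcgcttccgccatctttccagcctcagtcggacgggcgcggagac
INCENP promoter: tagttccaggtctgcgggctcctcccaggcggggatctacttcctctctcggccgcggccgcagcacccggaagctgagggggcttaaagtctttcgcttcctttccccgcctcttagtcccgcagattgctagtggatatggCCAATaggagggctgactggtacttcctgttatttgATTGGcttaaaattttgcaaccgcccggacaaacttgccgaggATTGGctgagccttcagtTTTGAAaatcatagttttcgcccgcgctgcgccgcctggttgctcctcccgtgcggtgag
CDCA8 promoter: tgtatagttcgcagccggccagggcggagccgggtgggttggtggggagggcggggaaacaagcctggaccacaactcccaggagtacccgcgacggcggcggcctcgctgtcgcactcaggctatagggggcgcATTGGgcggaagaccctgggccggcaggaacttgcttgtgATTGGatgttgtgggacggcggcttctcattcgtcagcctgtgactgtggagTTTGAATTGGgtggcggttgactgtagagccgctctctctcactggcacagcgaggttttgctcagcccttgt
RCC2 promoter: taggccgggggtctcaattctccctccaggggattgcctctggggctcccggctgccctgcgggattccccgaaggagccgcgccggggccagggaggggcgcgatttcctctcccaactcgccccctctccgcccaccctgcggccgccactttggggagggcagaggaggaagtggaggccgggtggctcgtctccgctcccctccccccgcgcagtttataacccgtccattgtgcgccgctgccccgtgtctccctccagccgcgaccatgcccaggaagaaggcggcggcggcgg
CHR began 3 bases before the start of RAN, 10 bases before that of INCENP and 23 bases before that of CDCA8. INCENP and CDCA8 each had 3 CCAAT boxes in the window, and in CDCA8 the last of them shared a base with CHR. The RCC2 window held neither element. The E-box CACGTG, to which MYC and its relatives can bind, was in 2 of the 10 windows, of RAN and RCC1, against 7.26% of all windows and 9.32% of windows of genes compared. These matches are letters in a window and not measured binding sites.

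RCC2 was the targeted gene and was read first. An edited gene can still be transcribed, so its RNA level cannot by itself check a knockout label. The paper reports checking its DU145 knockout clones by flow cytometry, Western blots and sequencing of the DNA. RCC2 RNA stood at 37.8 FPKM in Scr, at 14.2 FPKM under the CD24 KO label and at 41.8 FPKM under the RCC2 KO label. The lowest RCC2 value was thus found under the CD24 KO label, 2.67-fold below Scr, and the value under its own knockout label was 1.10 times that of Scr. CD24, the other targeted gene, was at 93.2, 309 and 214 FPKM in the same order and was highest under its own knockout label. RNA of neither target was lower than Scr under its own label, so each direction below holds for the labels as given. Whether columns or libraries carry exchanged labels was not tested, and an exchange would change which knockout each value belongs to. CD24 was above Scr in both knockout columns, so exchanging only these columns would put RCC2 but not CD24 below Scr under its own label. An exchange that also moves the Scr column could put both targets below Scr. This would hold with the RCC2 KO column read as Scr, the CD24 KO column as RCC2 KO and the Scr column as CD24 KO. None of these readings was tested. RNA levels do not measure the proteins. RCC2 stood alone at its position in the table, chromosome 1 from 17733251 to 17766250, read as build hg19 like all positions from the table. GENCODE 29 lists 8 pseudogenes named after RCC2 and 9 named after RAN. The table holds none of them, and how the authors' counting treated fragments that also match these copies is not given in the sources used here. RCC2 and RAN values are to that extent uncertain. No such search was made for CD24, whose values may carry the same uncertainty.

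Markers of the line were read next. KRT8 and KRT18, keratins of simple epithelia, were between 141 and 348 FPKM in the 3 columns, and the basal keratin KRT5 was listed at 0 in each. Among 9 markers of immune, endothelial, fibroblast, blood and liver cells only CD68, a lysosomal protein that is not restricted to macrophages, reached 1 FPKM, with 37.1, 81.5 and 38.4 FPKM in Scr, CD24 KO and RCC2 KO. The summed FPKM of these markers was 37.6, 82.5 and 38.8, and PTPRC, CD3E and HBB were listed at 0 in every column.

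All 9 members had less RNA in the libraries labelled CD24 KO than in Scr. In bulk RNA, fewer cells in a cycle phase and less RNA per cell cannot be told apart. Changes were taken as differences of log2(FPKM + 1) and compared with those of the 12822 genes with at least 1 FPKM in at least 1 column. Every member had at least 12.1 FPKM in each column, so this filter left out no member. The median log2 change of the members was -0.99, from -1.36 for RCC2 to -0.78 for RANBP1, and that of all genes compared was -0.03. Lower values by any amount were found for 52.9% of the genes compared. At least 1.5-fold lower were 9 of 9 members and 11.6% of genes. At least 2-fold lower were 4 of 9 members (RCC2, RAN, RCC1 and AURKB) and 3.03% of genes. INCENP, BIRC5 and CDCA8 lay just inside the 2-fold minimum, at log2 changes of -0.99, -0.98 and -0.97. As plain ratios without the added 1, these 3 genes were also at least 2-fold lower, BIRC5 by 2.00-fold, which made 7 of 9 members against 4.81% of genes. The members are well expressed, and among the 7198 genes with at least 10 FPKM in a column, 4.15% were at least 2-fold lower, with a median log2 change of -0.13.

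**Figure D1:**
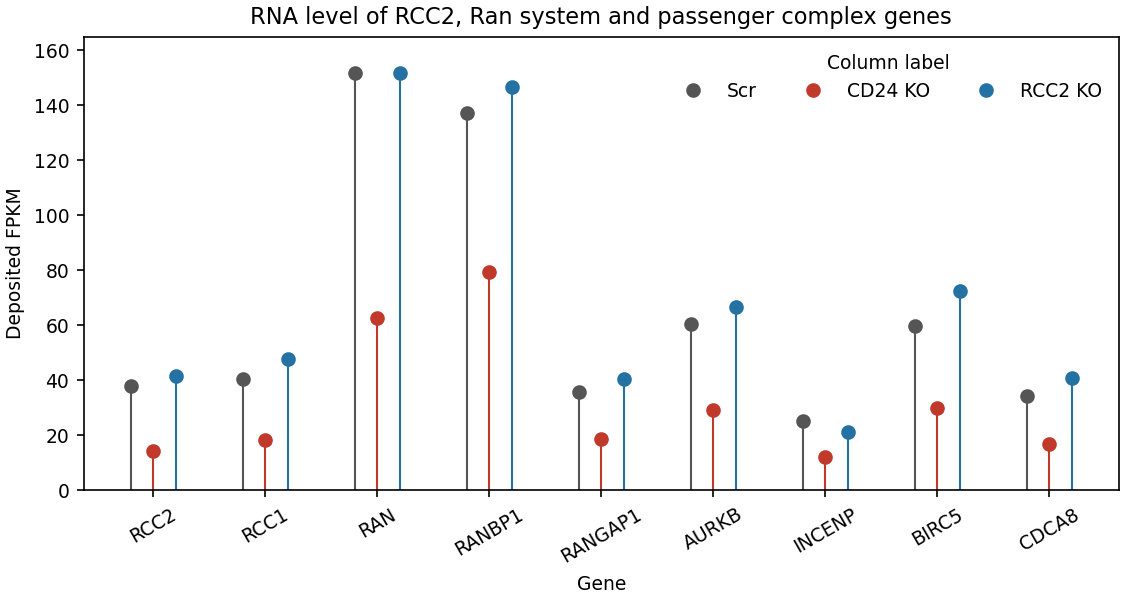
Deposited FPKM of the 9 genes (vertical axis) in the columns labelled Scr, CD24 KO and RCC2 KO, with 1 value per gene and condition and no error bars because the table holds no replicates. Each red point for CD24 KO lies below the grey point for Scr and the blue point for RCC2 KO, from 14.2 against 37.8 and 41.8 FPKM for RCC2 to 79.6 against 137 and 147 FPKM for RANBP1.

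RCC2 had the lowest change of the 9 members in CD24 KO. Of all genes compared, 1.05% had a lower change than RCC2. Among the 8 other members the nearest was RAN, the GTPase itself, which was at 152 (Scr), 62.7 (CD24 KO) and 152 FPKM (RCC2 KO). Its log2 change in CD24 KO was -1.26, a ratio of 2.42-fold below Scr. RCC1, which charges Ran, was at 40.3 (Scr), 18.5 (CD24 KO) and 47.9 FPKM (RCC2 KO), with a log2 change in CD24 KO of -1.09.

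The genes that let Ran discharge its GTP were lower in CD24 KO by less. RANGAP1, the GTPase activating protein, was at 35.9 (Scr), 18.6 (CD24 KO) and 40.5 FPKM (RCC2 KO), with a log2 change of -0.91 in CD24 KO. RANBP1, its cofactor, was at 137 (Scr), 79.6 (CD24 KO) and 147 FPKM (RCC2 KO), with a log2 change of -0.78. The table places 3 members at a position shared with other genes, between which fragments could have been divided. RANBP1 (chromosome 22, 20067755 to 20114880) shares its position with DGCR8, at 13.6, 6.03 and 15.9 FPKM in Scr, CD24 KO and RCC2 KO, and with TRMT2A, at 11.3, 7.45 and 13.3 FPKM. RANGAP1 (chromosome 22, 41640781 to 41756151) shares its own with ZC3H7B, at 19.5, 15.2 and 23.1 FPKM. For both genes the neighbours were also lowest in CD24 KO.

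RCC1 (chromosome 1, 28832455 to 28865708) shares its position with SNHG3 and SNORA73B, and differed from SNHG3 in direction. SNHG3, a noncoding host gene of small nucleolar RNA at the same position, was at 24.9 (Scr), 39.2 (CD24 KO) and 26.1 FPKM (RCC2 KO). SNHG3 was thus 1.58 times its Scr value in CD24 KO, where RCC1 was 2.18-fold lower. SNORA73B, a small nucleolar RNA, was lower in CD24 KO like RCC1, at 20.01 FPKM against 71.5 FPKM in Scr.

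The 4 passenger complex genes lay closer together than the Ran genes in CD24 KO. AURKB, the kinase, was at 60.7 (Scr), 29.2 (CD24 KO) and 66.7 FPKM (RCC2 KO), with a log2 change of -1.03 in CD24 KO. INCENP, the scaffold, was at 25.1 (Scr), 12.1 (CD24 KO) and 21.3 FPKM (RCC2 KO). For both genes CD24 KO held the lowest value. BIRC5 was at 59.9 (Scr), 29.9 (CD24 KO) and 72.7 FPKM (RCC2 KO). CDCA8 was at 34.2 (Scr), 17.0 (CD24 KO) and 40.8 FPKM (RCC2 KO). The summed FPKM of the complex was 180 in Scr, 88.2 in CD24 KO and 202 in RCC2 KO, a log2 change of the sum of -1.03 in CD24 KO. The sum of the 4 Ran genes was 365, 179 and 387 FPKM, with the same log2 change of -1.03 in CD24 KO.

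**Figure D2:**
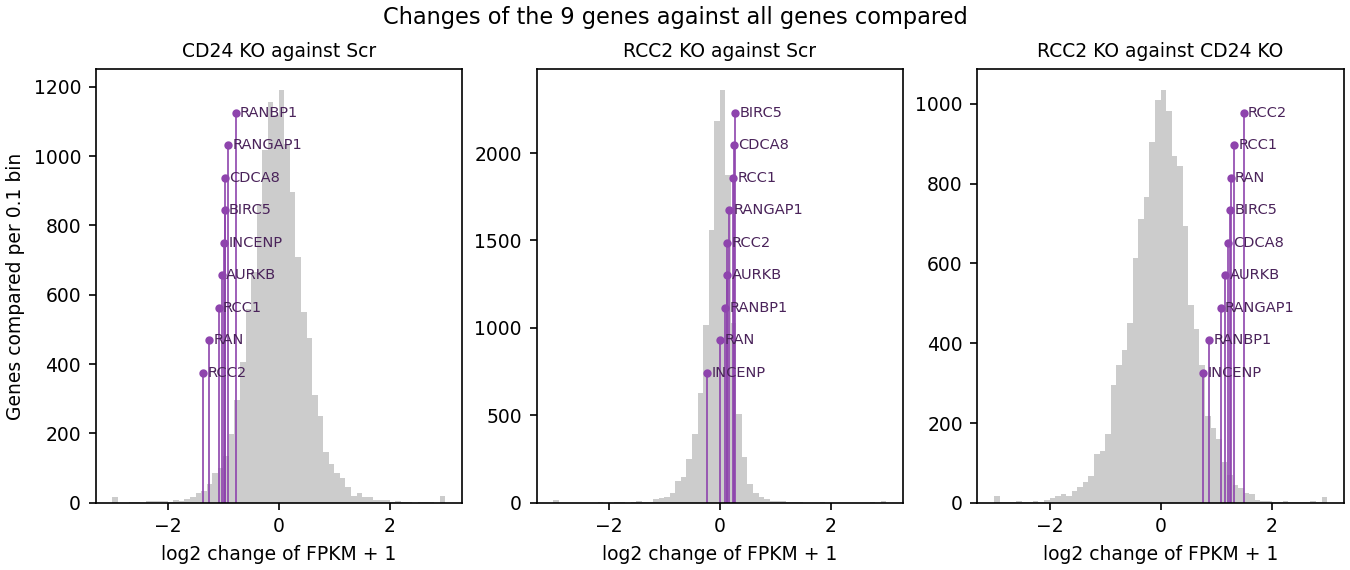
Log2 change of FPKM + 1 in each comparison (horizontal axis) for all 12822 genes compared, as grey counts per bin of 0.1, with the 9 members marked in purple at heights chosen only for legibility, and with changes beyond 3 in either direction drawn at 3. The members lie from -1.36 to -0.78 in CD24 KO against Scr, from -0.22 to 0.28 in RCC2 KO against Scr and from 0.77 to 1.496 in RCC2 KO against CD24 KO.

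Ratios between members within a column do not depend on how the columns were scaled to each other, and FPKM allows levels of different genes to be set side by side because it is a value per length. In the passenger complex these ratios were nearly the same in Scr and CD24 KO. The FPKM of AURKB was 2.42 times that of INCENP in Scr and 2.41 times in CD24 KO, and the FPKM of BIRC5 was 1.75 times that of CDCA8 in Scr and 1.76 times in CD24 KO. INCENP made up 13.9% of the summed FPKM of the complex in Scr and 13.7% in CD24 KO. In the Ran group the balance moved. RAN was at 1.11 times the FPKM of RANBP1 in Scr and at 0.788 times in CD24 KO, where RANBP1 held the highest level of all 9 members. RANBP1 made up 37.6% of the summed FPKM of the Ran genes in Scr and 44.4% in CD24 KO. RCC2 was at 0.938 times the FPKM of RCC1 in Scr and at 0.767 times in CD24 KO, and it went from the sixth to the eighth highest level of the 9 members. The libraries behind these ratios cannot be told apart, so their error is unknown.

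**Figure D3:**
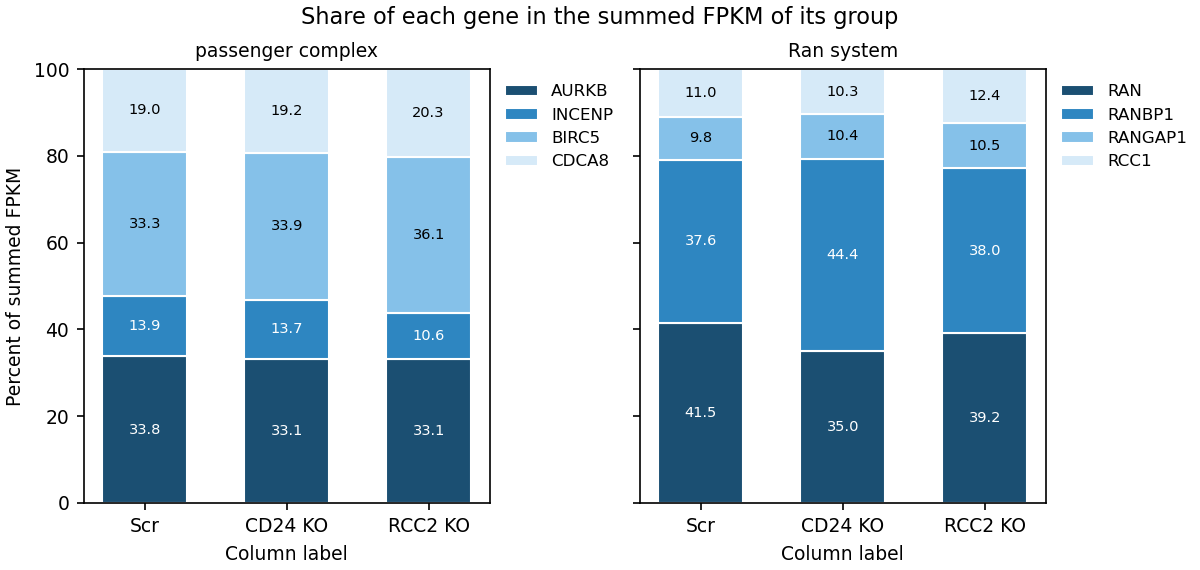
Share of each gene in the summed FPKM (vertical axis, percent) of the 4 passenger complex genes (left) and of the 4 Ran genes (right) in each labelled column. INCENP has 13.9%, 13.7% and 10.6% of the passenger complex in Scr, CD24 KO and RCC2 KO, and RANBP1 has 37.6%, 44.4% and 38.0% of the Ran genes.

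In the libraries labelled RCC2 KO, the members stayed near their Scr levels, as did most genes compared. The log2 changes ran from -0.22 for INCENP to 0.28 for BIRC5, with a median of 0.14, and that of all genes compared was -0.0036. None of the 9 members was at least 1.5-fold changed in either direction, against 5.27% of the genes compared. BIRC5, CDCA8 and RCC1 had the highest changes, at 0.28, 0.25 and 0.24, and RCC2 itself was at 0.14. RAN had the same value as in Scr to 3 digits. INCENP was the member furthest below Scr, at 0.852 times the Scr value, while its partners were between 1.10 and 1.21 times theirs. Its share of the summed FPKM of the complex was 10.6%, and AURKB was at 3.13 times the FPKM of INCENP, against 2.42 times in Scr. No spread is known against which these small differences could be read.

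Between the knockouts, which leaves out the Scr values they share, all 9 members were higher in the libraries labelled RCC2 KO than in those labelled CD24 KO. The median log2 difference was 1.22, from 0.77 for INCENP to 1.496 for RCC2, and that of all genes compared was 0.02. At least 1.5-fold higher were 9 of 9 members and 13.8% of genes, and at least 2-fold higher were 7 of 9 members, all but INCENP and RANBP1, and 4.02% of genes. RCC2, the gene targeted in the first of these groups, had the largest difference of the members, at 2.95 times its CD24 KO value.

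Genes with the pattern most like RCC2 were sought by the distance between the log2 changes of both knockouts against Scr, among genes with at least 5 FPKM in every column. The 5 nearest were MBD3, TOMM40, TRIP13, CDCA5 and ADSL, at distances of 0.03 to 0.07 log2 units. MBD3 is a subunit of a chromatin remodelling complex, TOMM40 the pore of protein import into mitochondria, TRIP13 an ATPase of the spindle checkpoint, CDCA5 (sororin) a cohesion factor and ADSL an enzyme of purine synthesis. MBD3 was at 32.7 (Scr), 11.9 (CD24 KO) and 35.7 FPKM (RCC2 KO). Of the other members RAN lay nearest to RCC2, at 0.17, and 40 of the 8116 such genes outside the members lay nearer than RAN. For RANBP1, the farthest member at 0.58, this number was 442 of 8116 genes. The likeness rests on 3 values per gene.

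Other genes of these pathways were taken from lists written from memory with results of the study in view. Of 17 other genes with RCC1-like repeats, 16 were compared. The median of their log2 changes in CD24 KO was -0.01, or 0.19 with each column rescaled to a common sum (TPM) and -0.19 over genes of at least 10 FPKM, with 1 gene at least 2-fold lower. This was RCC1L, a mitochondrial relative of RCC1, at 22.1 (Scr), 10.3 (CD24 KO) and 19.7 FPKM (RCC2 KO). MYCBP2, an E3 ligase, had a log2 change of -0.64 in CD24 KO, while SERGEF and HERC5 were at 0.61 and 0.35. In RCC2 KO the list had a median of -0.05, or -0.16 over genes of at least 10 FPKM, between -0.28 for IBTK and 0.13 for HERC6.

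The nuclear transport receptors that bind RanGTP, with their importin alpha adaptors, showed a wider range. In CD24 KO the median log2 change of 24 importin and exportin genes was -0.43, or -0.23 with TPM, with 8 genes at least 1.5-fold lower, 2 of them at least 2-fold, and none of the 24 at least 1.5-fold higher. KPNA2, the importin alpha best known from dividing cells, was at 264 (Scr), 119 (CD24 KO) and 260 FPKM (RCC2 KO). IPO4, an importin for histones and ribosomal proteins, had the lowest log2 change in CD24 KO, at -1.16. IPO8 and XPO7 were at the other end, at 0.27 and 0.19. In RCC2 KO the median of the list was 0.11 and no gene was 1.5-fold changed, with TNPO1 highest at 0.28 and IPO13 lowest at -0.09. Ran cofactors outside the members had a median of -0.16 in CD24 KO, over 9 of 10 genes, which became 0.050 with TPM, and none of them was 1.5-fold changed in either knockout, although with TPM 1 was at least 1.5-fold higher in CD24 KO. RANGRF, a Ran guanine nucleotide release factor, was highest in both, at 0.38 in CD24 KO and 0.41 in RCC2 KO.

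Spindle factors that RanGTP releases from importins were compared for 5 of 6 genes, since KIFC1 was under 0.1 FPKM in every column. Their log2 changes had medians of -0.35 under the CD24 KO label, or -0.15 with TPM and -0.14 with quantile normalization, and 0.08 under the RCC2 KO label. TPX2, which activates Aurora A on spindle microtubules, was at 121 (Scr), 93.6 (CD24 KO) and 129 FPKM (RCC2 KO). HMMR was the lowest in CD24 KO, at -0.59, and the only gene of the list at least 1.5-fold lower.

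The kinases and adaptors that place or activate the passenger complex lay between these lists and the members. Over 9 of 10 genes the median log2 change was -0.73 in CD24 KO, with 7 genes at least 1.5-fold lower and 2 at least 2-fold lower, and 0.13 in RCC2 KO, with no gene 1.5-fold changed. The 2 genes were PLK1, a mitotic kinase, at 79.9, 33.2 and 86.3 FPKM in Scr, CD24 KO and RCC2 KO, and CCNB1, the cyclin of CDK1, at 94.5, 40.4 and 115 FPKM. GSG2, the histone kinase haspin that marks the centromere for the complex, was at 10.8, 5.73 and 11.1 FPKM. BUB1 and SGO2 were least changed in CD24 KO, at -0.52 and -0.43, and SGO1 was highest in RCC2 KO, at 0.41. AURKA was at 84.0, 50.6 and 90.8 FPKM, and AURKC was under 1 FPKM in each column.

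Motors, kinetochore and midzone proteins that work with Aurora B had a median log2 change of -0.63 in CD24 KO over 12 genes, with 7 at least 1.5-fold and 2 at least 2-fold lower, and of 0.11 in RCC2 KO. ZWINT, a kinetochore protein, had the lowest change, from 77.8 FPKM in Scr to 25.4 FPKM in CD24 KO. KIF23, a motor of the central spindle, was at 60.8, 26.3 and 61.6 FPKM in Scr, CD24 KO and RCC2 KO. CENPA, the histone of the centromere, and CDCA2, a phosphatase adaptor, were at -0.41 and -0.18 in CD24 KO. ECT2 was lowest in RCC2 KO, at -0.11, and KIF4A highest, at 0.21.

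The small GTPases and partners linked to RCC2 in cell migration were mostly near their Scr levels in both knockouts. Over 8 genes the log2 changes had a median of -0.06 for CD24 KO, which turned to 0.16 with TPM and 0.11 with quantile normalization. That for RCC2 KO was 0.06. RAC1 was at 133, 137 and 139 FPKM in Scr, CD24 KO and RCC2 KO, ARF6 at 148, 135 and 153 FPKM and RALA at 20.6, 19.4 and 21.1 FPKM. VIM, the intermediate filament vimentin, was at 540, 545 and 605 FPKM. CTTN, which codes for the actin regulator cortactin, was the exception, at 144 (Scr), 67.3 (CD24 KO) and 149 FPKM (RCC2 KO), with a log2 change of -1.08 in CD24 KO.

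**Figure D4:**
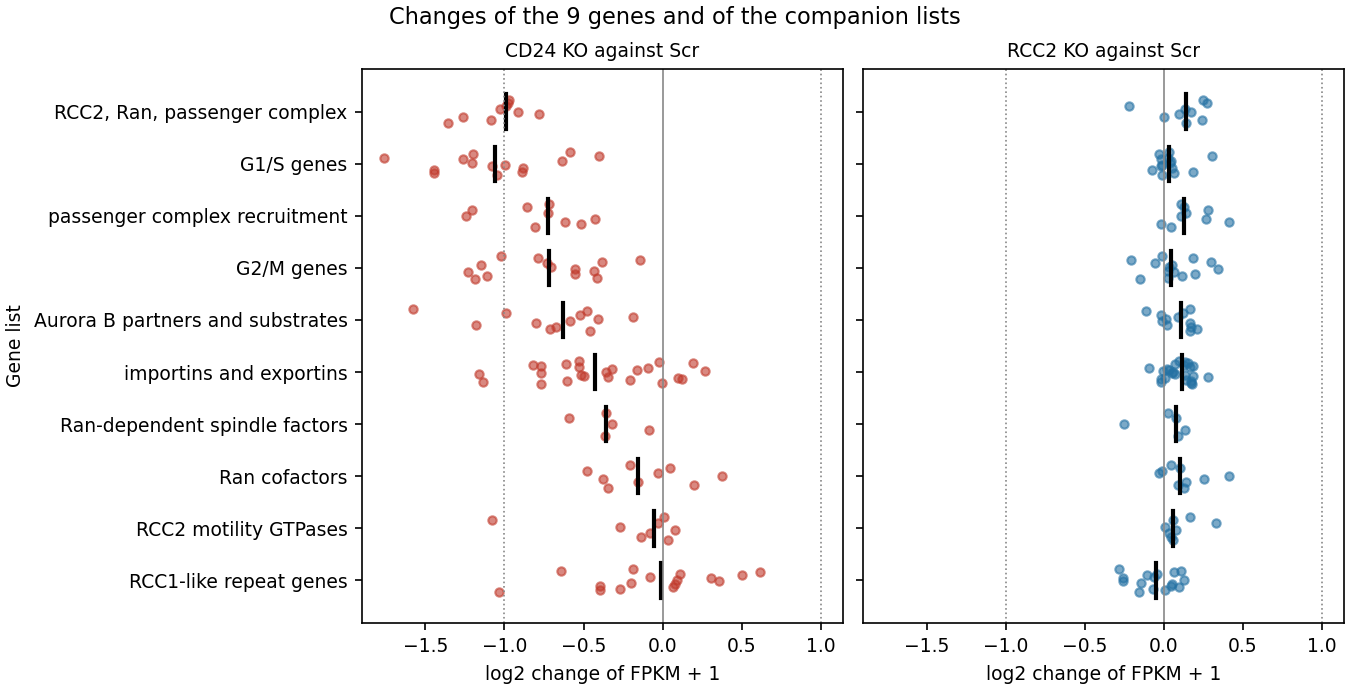
Log2 change of FPKM + 1 (horizontal axis) of CD24 KO (left) and RCC2 KO (right) against Scr, for the 9 members in the top row and the genes of 9 companion lists, with 1 point per gene, black bars at the medians and dotted lines at a 2-fold change. In CD24 KO the medians go from -0.99 for the members and -1.06 for G1/S genes to -0.01 for genes with RCC1-like repeats, and in RCC2 KO they lie between -0.05 and 0.14.

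Genes of the cell cycle were also lower in CD24 KO. Replication genes of the G1/S phase had a median log2 change of -1.06 in CD24 KO over 14 genes, 8 of them at least 2-fold lower, and 0.03 in RCC2 KO. RRM2, a subunit of ribonucleotide reductase, was lowest, from 138 FPKM in Scr to 40.1 FPKM in CD24 KO. Mitotic genes of the G2/M phase had a median of -0.72 in CD24 KO, with 5 of 14 at least 2-fold lower, and 0.04 in RCC2 KO. MKI67, the proliferation marker Ki-67, was at 74.3, 32.2 and 66.9 FPKM in Scr, CD24 KO and RCC2 KO. The summed FPKM of the G1/S list was 928, 398 and 944, and that of the G2/M list 1157, 686 and 1169. The part of the cell cycle in the lower level of the members was not tested. Genes often used as a constant reference were not constant either. The log2 changes of 10 such genes had a median of -0.34 in CD24 KO, or -0.13 with TPM, with GAPDH at -1.49 and YWHAZ at 0.14, and GAPDH was at -0.50 in RCC2 KO.

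The columns sum to 451272, 388764 and 447005 FPKM. With TPM the median log2 change of all genes compared in CD24 KO went to 0.16, and the genes at least 2-fold changed went from 3.03% lower and 2.67% higher to 2.13% lower and 6.51% higher. The median of the members was then -0.81, with 8 of 9 members at least 1.5-fold and 2 at least 2-fold lower, RCC2 at -1.18 and RAN at -1.06. The mitotic and cell cycle lists also moved towards Scr with TPM. Their medians in CD24 KO were then -0.52 for passenger complex recruitment and -0.42 for partners of Aurora B. Those of the G1/S and G2/M genes were -0.87 and -0.51. Of the listed genes counted as at least 1.5-fold lower in CD24 KO, TPM left 4 importins and exportins, 4 genes of passenger complex recruitment and 4 partners of Aurora B, and no spindle factor. At least 2-fold lower were then 1 importin or exportin, 2 recruitment genes, 1 partner of Aurora B, 6 G1/S genes, 1 G2/M gene and none of the RCC1-like repeat or migration genes. The levels of RCC2 in the 3 columns thus kept their order under each setting tried, with log2 changes in CD24 KO between -1.42 and -1.16.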

How the data were processed

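The authors deposited 1 table with 3 columns of FPKM, made from 6 libraries. Their processing notes name HISAT, StringTie, Cufflinks and GATK, with no version or role, and the paper a stranded mRNA kit. Build, annotation and the way libraries were combined are not given in the sources used here. None of the 9 loci overlapped the gene's GRCh38 position in GENCODE 29, so coordinates were read as hg19, with starts counted from 1. Promoter windows are GRCh38.p14 and were matched by symbol only.

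Genes with at least 1 FPKM in at least 1 column were compared as log2(FPKM + 1), and a fold minimum took the place of a test. Adding 1 understates the change of low genes. With 1 value per condition, no replicate SD, p-value or interval could be given. All members were named, and from each list the 2 genes with the highest and the 2 with the lowest change in each knockout among genes of at least 5 FPKM, of which some are not printed. AURKA, AURKC, KIFC1, ARF6, cell markers and genes at shared loci were named outside this rule, for their role or position. Members and lists were chosen with earlier results of these data known. The calculation was tested on simulated data. Python 3.11.15, NumPy 2.4.6, pandas 2.3.3 and matplotlib 3.10.9 were used.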

Additional observations from a re-analysis of the deposited data

How the results depend on the processing

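No paired analysis was possible because the table holds 1 value per condition, and for the same reason no library could be left out. The median log2 change of the members in CD24 KO against Scr was -0.81 with TPM and -0.86 with TPM over genes above 0 in every column. Between the knockouts it was 1.05 and 1.10 with these scalings, 1.06 with quantile normalization and 1.07 with a pseudocount of 5. The number of members at least 2-fold lower in CD24 KO, 4 with a pseudocount of 1, was 2 with a pseudocount of 5, with quantile normalization and with either TPM scaling, 7 without a pseudocount, a setting added after the data were seen, and 9 at a 1.5-fold minimum. Of 297 values for single members under 11 alternatives, 236 moved by no more than 0.1 and 61 by more, each of these in a comparison with CD24 KO, and no change of at least 0.1 turned its sign. RAN in RCC2 KO, at -3.8e-05, went up to 0.02. Among list medians of at least 0.1 in size, the Ran cofactors in CD24 KO turned to 0.050 and 0.0020 with the TPM scalings. The migration genes between the knockouts, at 0.17, turned to -0.015 with quantile normalization and -0.033 with TPM. Smaller medians turned as well. That of the RCC1-like repeat genes between the knockouts, at 0.03, went to -0.16 and -0.11 with the TPM scalings. The filters and the 1.5-fold minimum could not change the value of a member, so their part of the 236 was fixed in advance. Depth limits cannot be given without counts.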

Other observations

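Beside RCC1 and SNHG3, the same position in the table holds SNORA73B, a small nucleolar RNA encoded within SNHG3. SNORA73B was at 71.5 (Scr), 20.01 (CD24 KO) and 8.52 FPKM (RCC2 KO). The RNAs listed at this position thus had their lowest values in different columns, CD24 KO for RCC1, Scr for SNHG3 and RCC2 KO for SNORA73B. Values of RNA this short depend on library selection, and how fragments were divided among the RNAs was not tested.

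Of the promoter windows of genes at least 2-fold lower in CD24 KO, 43.3% of 383 windows held a CCAAT box and 14.1% the E-box CACGTG, and of the windows of all genes compared 34.3% and 9.32% of 14174 windows did. CHR was in 13.6% and 10.1% of these windows. Several windows can belong to a gene, the members are among these genes, and the shares were not tested.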
